A study of Mus musculus with 20 samples.

Results

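Polycomb repressive complex 2 (PRC2) was followed through its 10 genes Ezh2, Ezh1, Suz12, Eed, Rbbp4, Rbbp7, Jarid2, Mtf2, Phf19 and Aebp2 in bulk RNA-seq of mouse nerve tumors. The genes were chosen by name from the 24062 genes of the count table, and all 10 were found and passed the filter on low counts. PRC2 places methyl groups on lysine 27 of histone H3, a mark of silenced developmental genes. Ezh2 or Ezh1 is its catalytic subunit, Suz12 and Eed hold the core together, and Rbbp4 or Rbbp7 binds histones. Mtf2 and Phf19 belong to one form of the complex and Jarid2 and Aebp2 to the other, and these accessory subunits help to bring it to chromatin. Human malignant peripheral nerve sheath tumors often lose PRC2 through mutations of SUZ12 or EED.

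The 20 libraries came from C57BL/6J mice that received no drug. Neurofibromas (12 libraries) carried the genotype Nf1fl/fl; DhhCre. Paraspinal tumors of subgroup 1 (2 libraries) and subgroup 2 (2 libraries) and the GEM-PNST (4 libraries), the labels' short name for nerve sheath tumors of engineered mice, carried Ink4a/Arf+/-; Nf1fl/fl; DhhCre. All groups therefore shared the Nf1 deletion in the Schwann cell lineage, where DhhCre is active, and any other cell in a tumor keeps its Nf1. The labels give no ages, do not state whether every library is a separate animal. The sample codes of neurofibromas 8 and 9 share a stem, as do those of GEM-PNST 2 and the first paraspinal library of subgroup 1, and the tests treat all libraries as independent. The labels name the paraspinal subgroups sub-clusters, which may have been defined on these expression values. P-values set a difference against the spread between these libraries and hold only if the libraries are independent.

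Library totals ran from 9900759 to 17594164 counts in neurofibroma, 18474071 to 24314222 in paraspinal tumors and 16282605 to 22218382 in GEM-PNST. Runs were read from the prefixes of the deposited alignment names and taken to be sequencing runs. Neurofibroma libraries 1 to 6 and 7 to 12 formed 2 such runs and the other 8 libraries a run of their own. Run, Ink4a/Arf genotype and tumor stage therefore cannot be told apart wherever neurofibroma is compared. GEM-PNST libraries stood apart in cell markers. Their summed level of 15 sensory neuron markers was 2.98 to 82.2 CPM (counts scaled to a common library size with TMM factors), against 4203 to 6685 CPM in paraspinal tumors and 45.0 to 14940 CPM in neurofibroma, and Scn10a was at 0. For 8 Schwann lineage markers the sum was 1.83 to 968 CPM in GEM-PNST, 1917 to 3261 CPM in paraspinal tumors and 1438 to 2207 CPM in neurofibroma, so the defining markers of the labelled lineage were nearly absent in some GEM-PNST. GEM-PNST library 3 also held 40240 CPM of 10 salivary gland markers. In bulk RNA, fewer cells of a type and less RNA per cell cannot be told apart.

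The promoter windows printed first are those of Ezh2, Suz12 and Phf19, the 3 genes with an E2F cell cycle motif, and of Ezh1, which has none. This set follows the motif and not the size of any change, and Rbbp4 and Mtf2 are not in it. E2F factors switch on S phase genes through short words, searched here as TTTCCCGC, TTTCGCGC, TTTGCCGC and TTTGGCGC on both strands. Each window shows 250 bases before and 30 bases from the start of the transcript on, 5′ to 3′ on the gene's own strand, from RefSeq on GRCm38.p6, with the E2F word in capitals.
Ezh2 (chr6:47595001-47595280, minus strand): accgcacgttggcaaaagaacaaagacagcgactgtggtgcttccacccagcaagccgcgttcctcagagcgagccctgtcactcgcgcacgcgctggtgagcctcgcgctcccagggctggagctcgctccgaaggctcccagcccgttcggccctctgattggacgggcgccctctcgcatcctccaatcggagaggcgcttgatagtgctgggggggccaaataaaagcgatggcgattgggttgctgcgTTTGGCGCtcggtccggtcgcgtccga
Ezh1 (chr11:101226434-101226713, minus strand): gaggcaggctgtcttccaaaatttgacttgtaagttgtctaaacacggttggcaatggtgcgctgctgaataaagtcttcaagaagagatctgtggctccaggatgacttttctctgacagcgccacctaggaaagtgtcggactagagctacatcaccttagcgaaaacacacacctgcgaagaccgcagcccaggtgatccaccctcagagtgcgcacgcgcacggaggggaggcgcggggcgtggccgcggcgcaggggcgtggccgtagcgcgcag
Suz12 (chr11:79992856-79993135, plus strand): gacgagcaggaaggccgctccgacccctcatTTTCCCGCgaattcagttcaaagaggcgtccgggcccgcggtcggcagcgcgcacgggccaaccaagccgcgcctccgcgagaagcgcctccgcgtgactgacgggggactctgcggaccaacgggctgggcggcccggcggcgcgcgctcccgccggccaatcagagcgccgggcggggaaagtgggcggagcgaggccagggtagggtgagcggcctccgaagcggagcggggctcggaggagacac
Phf19 (chr2:34913947-34914226, minus strand): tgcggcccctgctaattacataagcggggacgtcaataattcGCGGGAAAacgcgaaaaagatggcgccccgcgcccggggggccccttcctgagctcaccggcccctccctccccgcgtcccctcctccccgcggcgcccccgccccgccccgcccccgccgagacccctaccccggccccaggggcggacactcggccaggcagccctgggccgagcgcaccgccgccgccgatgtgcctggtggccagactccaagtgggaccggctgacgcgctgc
The Ezh2 window holds TTTGGCGC 3 bases after the start, the Suz12 window TTTCCCGC 219 bases before it, and the Phf19 window GCGGGAAA, the reverse complement, 208 bases before it. No E2F word was found in the windows of the other 7 genes, Ezh1 included. RefSeq gives 14 windows of the full length (250 bases before and 50 after a start) for the 10 genes. Of all 32851 such windows 2.26% hold an E2F word, as do 3 of these 14 and those of 6 of 22 proliferation genes with a window. The CHR word TTTGAA, which mitotic genes carry, is in 17.9% of all windows and in 4 of the 14, of Suz12, Eed, Mtf2 and Aebp2. For Mtf2 it is in window 2 alone and for Aebp2 in window 3 alone, counted along the chromosome. The CCAAT box, searched as CCAAT, is in 37.4% of all windows and in 9 of the 14. These 9 belong to 8 of the 10 genes, Ezh1 and Phf19 being without it. In the windows of these genes no match overlapped another. Offsets count from the RefSeq starts. GENCODE begins Ezh2 and Phf19 further upstream, Ezh2 at 47595341, before the whole printed window. A match describes the sequence and is not a measured site.

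Ezh2 had its highest levels in GEM-PNST and its lowest in paraspinal subgroup 1. Ezh2 (chromosome 6, 47530139 to 47595341, GENCODE annotation of GRCm38, minus strand) encodes the catalytic subunit of dividing cells. It measured 57.5, 43.1, 29.9 and 36.2 CPM in GEM-PNST 1, 2, 3 and 4, compared with 10.01 and 10.8 CPM in paraspinal subgroup 1 and 23.5 and 17.0 CPM in subgroup 2. In neurofibroma it ran from 12.05 CPM (library 11) through a median of 22.55 to 42.1 CPM (library 4). Every GEM-PNST library was above every paraspinal library, while both groups overlapped with neurofibroma. These levels rest on 140 to 848 counts per library.

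Ezh2 was the 1 member of the 10 that rose from paraspinal tumors to GEM-PNST, where the test called 2.77% of 16589 genes higher and 8.13% lower (10.9% in all). The log2 fold change of Ezh2 was 1.35 with an SE of 0.35 (adjusted p = 0.0457, edgeR). When GEM-PNST library 1, 2 or 4, either library of paraspinal subgroup 1, or subgroup 2 library 2 was left out, the log2 fold change was 1.20 to 1.43 and the adjusted p 0.0636 to 0.127. With library totals alone in place of TMM factors it was 0.93 (adjusted p = 0.0959), and the median of all genes shifted by -0.39. Against neurofibroma Ezh2 rose by 0.77 in GEM-PNST (SE 0.25, adjusted p = 0.0115), a comparison in which 73.2% of all genes were called (35% higher, 38.2% lower). With library 1 of the GEM-PNST left out the value was 0.56 (adjusted p = 0.0804). With the neurofibromas of run 1 alone it was 0.64 (adjusted p = 0.0632), with those of run 2 alone 0.94 (adjusted p = 0.0217), and with library totals alone 0.47 (adjusted p = 0.134). In paraspinal tumors against neurofibroma the difference was -0.65 (SE 0.30, adjusted p = 0.0675), which did not pass.

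Ezh1 had its lowest levels in GEM-PNST. Ezh1 (chromosome 11, 101191115 to 101226463, minus strand) encodes the less active catalytic subunit of resting and differentiated cells. It measured 40.6, 50.8, 50.3 and 35.5 CPM in GEM-PNST, 44.5 and 65.5 CPM in paraspinal subgroup 2 and 105 and 92.7 CPM in subgroup 1. Neurofibroma ranged from 73.5 CPM (library 4) through a median of 106 to 124.5 CPM (library 9). All GEM-PNST libraries lay below all neurofibromas, and subgroup 1 lay within the neurofibroma range. Ezh1 fell from neurofibroma to GEM-PNST by 1.24 in log2 units (SE 0.15, adjusted p = 1.52e-06), with -1.16 and -1.31 against runs 1 and 2 alone. The differences of GEM-PNST from paraspinal tumors (-0.88, SE 0.31, adjusted p = 0.0939) and of paraspinal tumors from neurofibroma (-0.43, SE 0.18, adjusted p = 0.0503) did not pass.

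**Figure D1:**
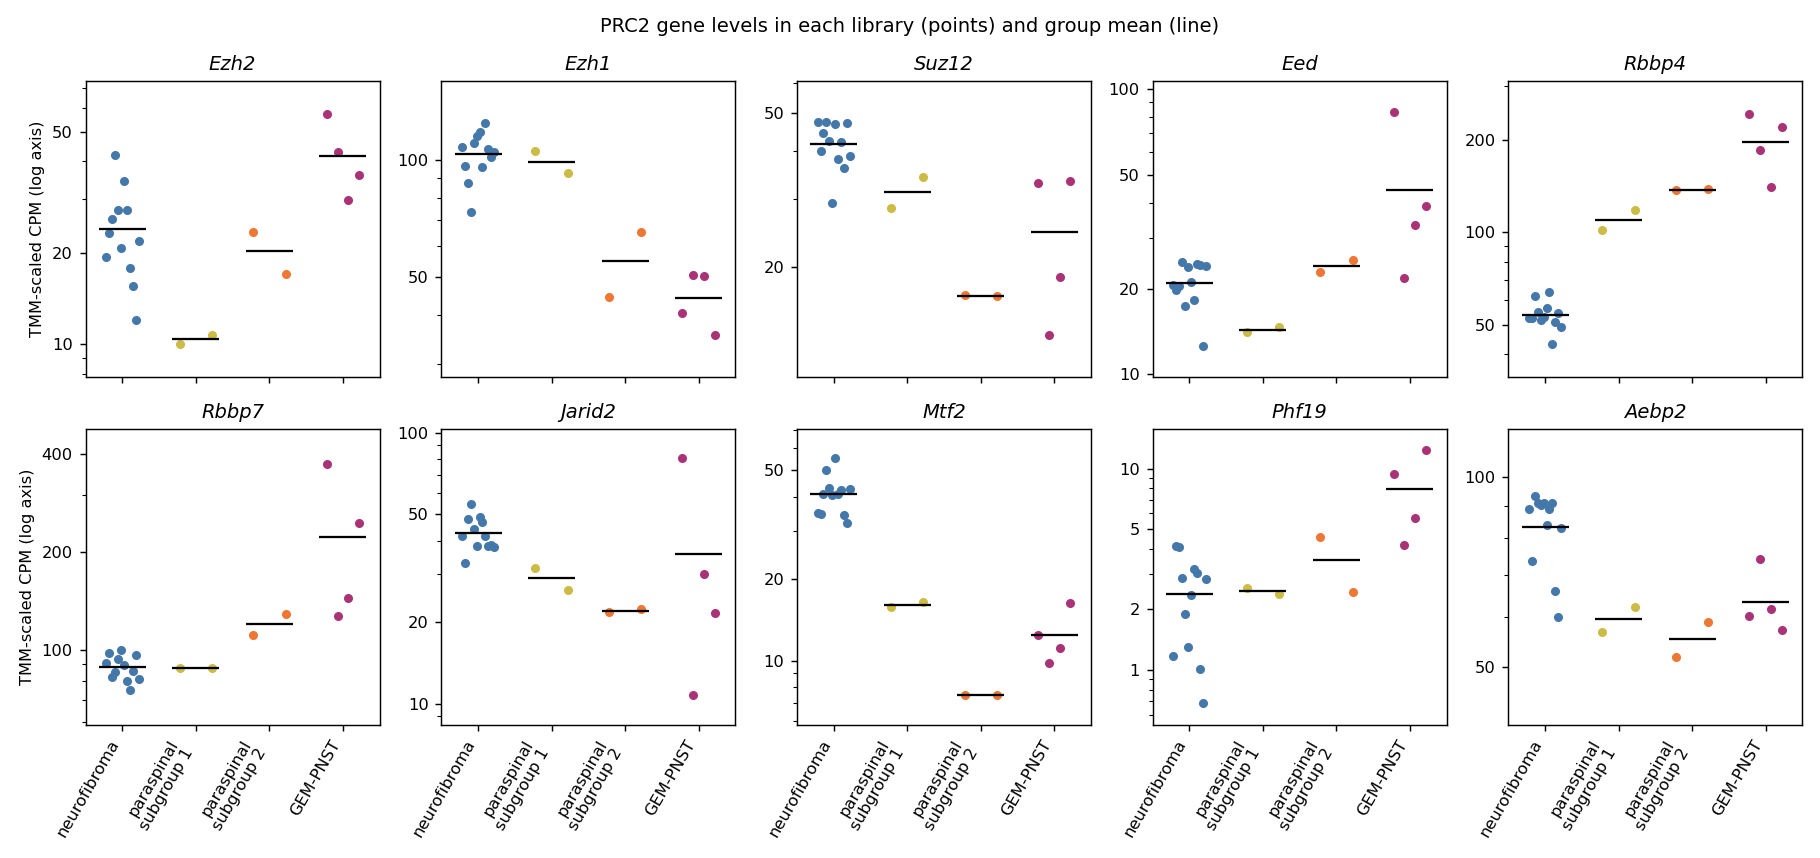
TMM-scaled CPM (log axis) of the 10 PRC2 genes in each of the 20 libraries (points) with the group mean (line), by group. Ezh2 and Rbbp4 are higher in all 4 GEM-PNST than in all 4 paraspinal libraries, and Mtf2 is lower in all 8 of these than in any neurofibroma.

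Within a library, the ratio of Ezh2 to Ezh1 set GEM-PNST apart from both other stages. The log2 ratio, computed on CPM plus 0.5, was 0.50, -0.23, -0.74 and 0.03 in GEM-PNST libraries 1 to 4. It was -3.33 and -3.05 in paraspinal subgroup 1, -0.91 and -1.92 in subgroup 2, and -3.03 to -0.80 with a median of -2.13 in neurofibroma. No GEM-PNST value overlapped with either group. The mean was 2.19 higher in GEM-PNST than in paraspinal tumors (two-sided exact permutation p = 0.0286, the smallest that 4 against 4 libraries can give; adjusted over the 3 pairs of stages, 0.0429). It was 2.03 higher than in neurofibroma (exact permutation p = 0.0011, the smallest for 4 against 12; adjusted p = 0.0033), and 1.79 and 2.27 higher than in runs 1 and 2 alone (adjusted exact permutation p = 0.0286 for each). Paraspinal tumors and neurofibroma differed by -0.16 (exact permutation p = 0.737) and overlapped. The subgroups lay on opposite sides of the neurofibroma mean, at -1.04 for subgroup 1 alone (adjusted exact permutation p = 0.033) and 0.73 for subgroup 2 alone (0.242). As the subgroups may have been defined on these expression values, these 2 p-values are descriptions and not valid tests. The ratio is free of the library scaling apart from the added 0.5.

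Per kilobase of annotated exon, Ezh1 was the higher of the pair in neurofibroma (13.9 ± 1.88 against 3.60 ± 1.24 CPM per kb, SD, n = 12) and in paraspinal tumors (10.3 ± 3.66 against 2.29 ± 0.939, SD, n = 4). In GEM-PNST the levels lay within each other's spread, at 6.24 ± 1.77 CPM per kb for Ezh2 and 5.95 ± 1.01 for Ezh1 (SD, n = 4). Ezh2 thus made up 61.2%, 48.6%, 39.8% and 53.2% of the summed catalytic subunit level in the 4 GEM-PNST. The share was 11.6% to 39.0% in neurofibroma, 9.60% and 11.5% in paraspinal subgroup 1 and 37.0% and 22.4% in subgroup 2. Lengths taken from the longest coding transcript moved the means from 50.7%, 20.6% and 20.1% in GEM-PNST, neurofibroma and paraspinal tumors to 58.1%, 25.8% and 25.0%. With these lengths the GEM-PNST means were 14.95 CPM per kb for Ezh2 and 10.53 for Ezh1, so how near the 2 levels are depends on the length used.

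**Figure D2:**
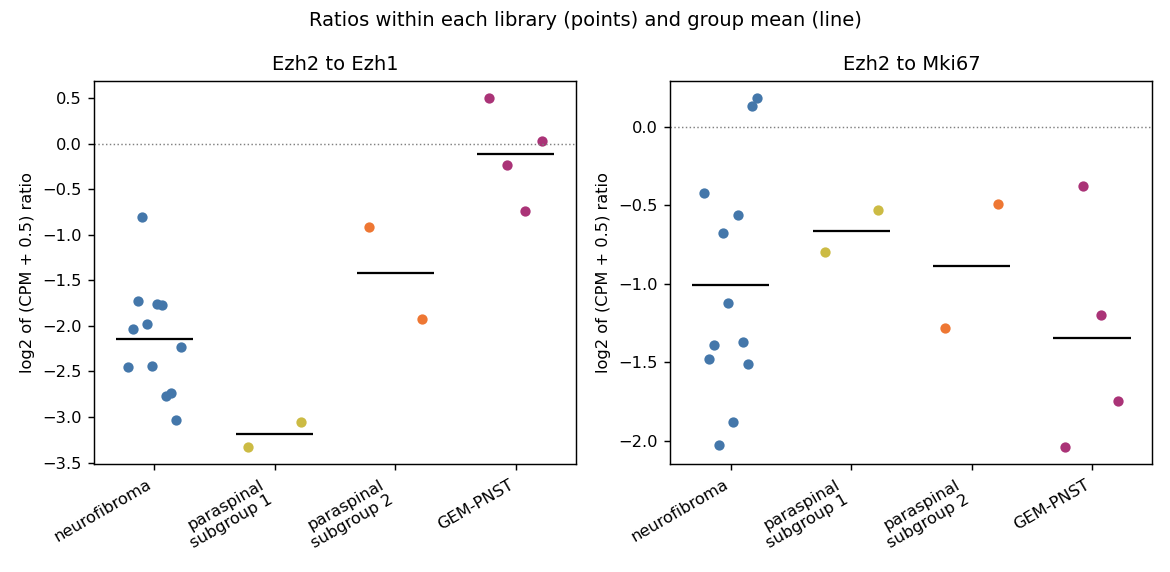
Log2 ratios of Ezh2 to Ezh1 (left) and of Ezh2 to Mki67 (right) within each library (points), computed on TMM-scaled CPM plus 0.5, with group means (lines). The Ezh2 to Ezh1 ratio is -0.74 or more in every GEM-PNST and -0.80 or less in every other library, whereas the Ezh2 to Mki67 ratio overlaps among all groups.

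Ezh2 was next set against Mki67, a gene transcribed in cycling cells. Mki67 measured 238.5, 56.3, 69.4 and 123 CPM in GEM-PNST, 17.8 and 15.8 CPM in paraspinal subgroup 1, 57.5 and 24.0 CPM in subgroup 2, and 10.9 to 173 CPM with a median of 45.5 in neurofibroma. Like Ezh2 it was lowest among the Ink4a/Arf+/- tumors in subgroup 1 and highest in GEM-PNST library 1. The log2 ratio of Ezh2 to Mki67 averaged -1.34 ± 0.73 in GEM-PNST, -0.77 ± 0.36 in paraspinal tumors and -1.01 ± 0.73 in neurofibroma (SD, n = 4, 4 and 12). GEM-PNST differed from paraspinal tumors by -0.57 (exact permutation p = 0.257) and from neurofibroma by -0.33 (exact permutation p = 0.44), and paraspinal tumors from neurofibroma by 0.24 (exact permutation p = 0.544). All 3 adjusted to 0.544 and the groups overlapped in each, so a difference in Ezh2 per Mki67 was not detected with these numbers of libraries. Mki67 was not typical of the 25 proliferation genes against neurofibroma. In GEM-PNST its log2 fold change was 1.01 (SE 0.53, edgeR adjusted p = 0.0964), where 24 of the list rose with a median of 3.08. In paraspinal tumors it was -1.05 (SE 0.59, edgeR adjusted p = 0.134), where the list had a median of 0.97. Ratios of Ezh2 to the other proliferation genes were not tested.

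Among the 12 neurofibromas, the level of Ezh2 followed that of Mki67 in log2 CPM with Pearson's r = 0.82 (permutation p = 0.00187, adjusted over the 10 genes 0.0187) and Spearman's rho = 0.57 (permutation p = 0.0557, adjusted 0.218). Within runs 1 and 2 r was 0.90 and 0.73, over 6 libraries each. Without libraries 4 and 11, the 2 farthest from the median Mki67 level, r was 0.53, so the relation rests on those samples. Neurofibroma 4 had the highest levels of Ezh2, Eed, Jarid2 and Mki67 and the lowest of Ezh1, and neurofibroma 11 the lowest of Ezh2, Eed, Mtf2, Phf19, Aebp2 and Mki67. Cell markers moved with these 2 libraries. Summed sensory neuron markers were lowest in neurofibroma 4 (45.0 CPM) and highest in neurofibroma 11 (14940 CPM), macrophage markers 836 and 59.4 CPM, the highest and lowest of the 12, and fibroblast markers 9730 and 1191 CPM, the latter the lowest. Their part in the relation was not tested. For Mtf2 r was 0.70 (permutation p = 0.0118, adjusted 0.0592). The other 8 genes had r from -0.35 for Ezh1 to 0.59 for Jarid2, with adjusted permutation p-values of 0.144 or more.

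**Figure D3:**
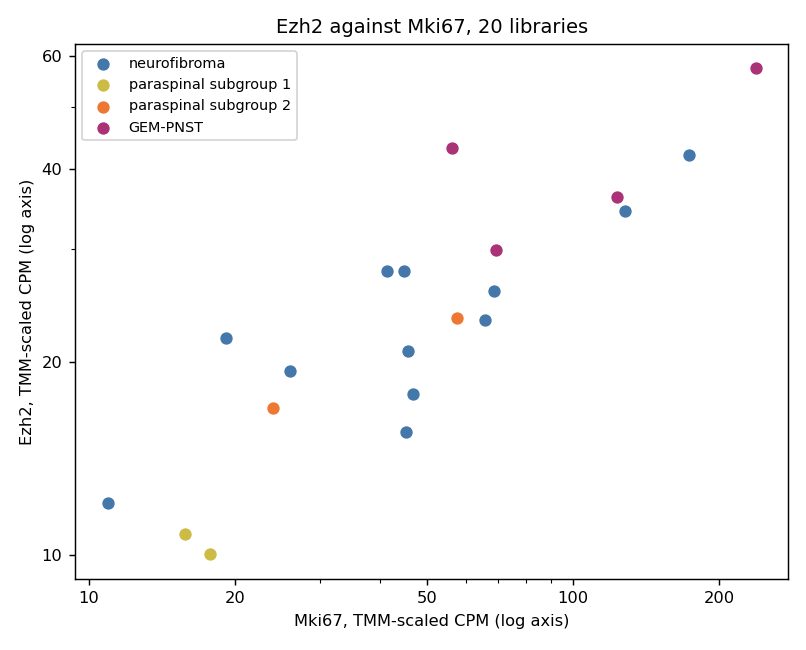
Ezh2 against Mki67 in TMM-scaled CPM (both axes log) in the 20 libraries, colored by group. The libraries run from low levels of both genes in paraspinal subgroup 1 and neurofibroma 11 to 57.5 CPM of Ezh2 and 238.5 CPM of Mki67 in GEM-PNST library 1.

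Over all 20 libraries, the genes most like Ezh2 in log2 CPM among 10502 well expressed genes were Cenpe (r = 0.91), Kif11 (0.90), Tyms (0.89), Clcc1 (0.88) and Cenpf (0.87), with Mki67 next at 0.87. Cenpe, Kif11 and Cenpf act in mitosis and Tyms makes thymidylate for DNA synthesis. Closest to Ezh1 were Tns1 and A830010M20Rik (both 0.95), D10Bwg1379e, Klf12 and Slc23a2 (each 0.94), and its r with Mki67 was -0.49. Tns1 averaged 681 ± 173 CPM in neurofibroma, 350 ± 157 in paraspinal tumors and 109 ± 27.2 in GEM-PNST (SD, n = 12, 4 and 4), the same order as Ezh1. These correlations are descriptions, since the libraries share their groups and runs.

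Against neurofibroma the core subunit genes parted in GEM-PNST, where Suz12 fell and Eed rose. Suz12 (chromosome 11, 79993106 to 80034123, plus strand) lies 411493 bases beyond the end of Nf1, the gene deleted in all groups. It measured 32.9, 13.3, 18.8 and 33.4 CPM in GEM-PNST, 28.3 and 34.1 CPM in paraspinal subgroup 1 and 16.8 CPM in both libraries of subgroup 2. Neurofibroma ranged from 29.3 CPM (library 6) through a median of 42.3 to 47.4 CPM. The groups overlapped, with 5 of the 8 Ink4a/Arf+/- tumors below every neurofibroma. Suz12 fell from neurofibroma to paraspinal tumors by 0.80 in log2 units (SE 0.18, adjusted p = 0.00122), where 59.6% of all genes were called (30.3% higher, 29.3% lower). With subgroup 1 alone this difference was -0.40 (adjusted p = 0.0759) and did not pass. From neurofibroma to GEM-PNST it fell by 0.78 (SE 0.21, adjusted p = 0.00353). Between GEM-PNST and paraspinal tumors the difference was -0.04 (SE 0.41, adjusted p = 0.964). Suz12 counts remained in every library, with a minimum of 245, so no library lacked its transcript.

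Eed (chromosome 7, 89954654 to 89980983, minus strand) binds the methylated lysine that PRC2 itself makes. It measured 83.3, 21.8, 33.4 and 38.9 CPM in GEM-PNST, 14.03 and 14.6 CPM in paraspinal subgroup 1, 22.9 and 25.1 CPM in subgroup 2, and 12.6 to 24.8 CPM with a median of 20.9 in neurofibroma. GEM-PNST library 1 was far above the rest, and library 2 lay within the neurofibroma range. Eed rose from neurofibroma to GEM-PNST by 1.07 (SE 0.24, adjusted p = 0.000833). With library 1 of the GEM-PNST left out the rise was 0.55 (adjusted p = 0.0151). Against paraspinal tumors the difference was 1.12 (SE 0.43, adjusted p = 0.114), and between paraspinal tumors and neurofibroma -0.13 (SE 0.19, adjusted p = 0.581).

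Rbbp4 was the 1 gene of the 10 whose 3 stages did not overlap. Of all genes 36.5% did not overlap between paraspinal tumors and neurofibroma and 46.5% between GEM-PNST and neurofibroma. Between GEM-PNST and paraspinal tumors it was 27.6%, and the share for all 3 stages at once was not computed. Rbbp4 (chromosome 4, 129307100 to 129335370, minus strand) encodes a histone chaperone that also serves in NuRD, Sin3 and chromatin assembly complexes. It measured 242.5, 186, 139.9 and 221 CPM in GEM-PNST, 102 and 118 CPM in paraspinal subgroup 1, 137 and 138 CPM in subgroup 2 and 43.3 to 63.8 CPM with a median of 52.8 in neurofibroma. Levels stepped up from stage to stage, with GEM-PNST library 3 just above subgroup 2. Rbbp4 rose from neurofibroma to paraspinal tumors by 1.20 (SE 0.11, adjusted p = 7.77e-08) and to GEM-PNST by 1.85 (SE 0.13, adjusted p = 2.15e-09). The step from paraspinal tumors to GEM-PNST, 0.59 (SE 0.25, adjusted p = 0.143), did not pass.

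Rbbp7 (chromosome X, 162760402 to 162779092, plus strand) encodes a close relative of Rbbp4, and how reads matching both genes were counted is not given in the sources used here. It measured 374, 127, 144 and 245.5 CPM in GEM-PNST, 87.5 and 88.0 CPM in paraspinal subgroup 1, 111 and 128 CPM in subgroup 2, and 75.3 to 99.8 CPM with a median of 87.8 in neurofibroma. GEM-PNST lay above all neurofibromas, and its library 2 was just below the higher subgroup 2 library. Rbbp7 rose from neurofibroma to GEM-PNST by 1.31 (SE 0.20, adjusted p = 1.6e-05). Leaving out library 1 of the GEM-PNST gave 0.93 (adjusted p = 8.7e-05). The differences of GEM-PNST from paraspinal tumors (1.01, SE 0.37, adjusted p = 0.103) and of paraspinal tumors from neurofibroma (0.24, SE 0.12, adjusted p = 0.0936) did not pass.

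Mtf2 and Phf19 are Polycomb-like subunits, which bind unmethylated CpG-rich DNA, and against neurofibroma Mtf2 fell and Phf19 rose in GEM-PNST. Mtf2 (chromosome 5, 108065674 to 108109004, plus strand) measured 12.5, 9.85, 11.2 and 16.4 CPM in GEM-PNST, 15.7 and 16.4 CPM in paraspinal subgroup 1, and 7.50 and 7.49 CPM in subgroup 2. In neurofibroma it ran from 32.1 CPM (library 11) through a median of 40.7 to 55.3 CPM (library 7). All 8 Ink4a/Arf+/- tumors were below every neurofibroma, and GEM-PNST lay between the subgroups or within subgroup 1. Mtf2 fell from neurofibroma to paraspinal tumors by 1.80 (SE 0.23, adjusted p = 3.16e-06) and to GEM-PNST by 1.73 (SE 0.18, adjusted p = 1.88e-07). Runs 1 and 2 alone gave -1.87 and -1.81 for the first and -1.72 and -1.74 for the second. GEM-PNST and paraspinal tumors differed by 0.01 (SE 0.41, adjusted p = 1).

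Phf19 (chromosome 2, 34893757 to 34914026, minus strand) was the member with the fewest counts, 8 to 152 per library. It measured 9.43, 4.17, 5.67 and 12.3 CPM in GEM-PNST, 2.57 and 2.39 CPM in paraspinal subgroup 1, 4.58 and 2.45 CPM in subgroup 2 and 0.688 to 4.15 CPM with a median of 2.59 in neurofibroma. The lowest GEM-PNST library was barely above the highest neurofibroma and below 1 paraspinal library. Phf19 rose from neurofibroma to GEM-PNST by 1.71 (SE 0.40, adjusted p = 0.00113). It differed by 1.33 between GEM-PNST and paraspinal tumors (SE 0.51, adjusted p = 0.112) and by 0.33 between paraspinal tumors and neurofibroma (SE 0.40, adjusted p = 0.506).

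Of the other pair of accessory subunits, Jarid2 spread widely in GEM-PNST. Jarid2 (chromosome 13, 44729474 to 44921643, plus strand), a catalytically inactive relative of histone demethylases, measured 81.0, 10.7, 30 and 21.7 CPM in GEM-PNST, 31.8 and 26.2 CPM in paraspinal subgroup 1, 21.7 and 22.4 CPM in subgroup 2 and 33.1 to 54.4 CPM with a median of 41.6 in neurofibroma. GEM-PNST library 1 exceeded every neurofibroma and the other 3 were below them all. Jarid2 fell from neurofibroma to paraspinal tumors by 0.74 (SE 0.14, adjusted p = 0.00026), without overlap. The difference of GEM-PNST from neurofibroma was -0.27 (SE 0.33, adjusted p = 0.472), and without GEM-PNST library 1 it was -1.08 (adjusted p = 0.000686), so that library decides the call. GEM-PNST and paraspinal tumors differed by 0.38 (SE 0.55, adjusted p = 0.652), or by -0.32 (adjusted p = 0.596) without that library.

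Aebp2 (chromosome 6, 140622663 to 140678472, plus strand), a zinc finger subunit, stayed between 51.9 and 93.1 CPM in all 20 libraries. It measured 60.3, 74.1, 61.8 and 57.2 CPM in GEM-PNST, 56.9 and 62.2 CPM in paraspinal subgroup 1, 51.9 and 58.9 CPM in subgroup 2 and 59.97 to 93.1 CPM with a median of 88.9 in neurofibroma. The Ink4a/Arf+/- tumors overlapped with the 3 lowest neurofibromas. Aebp2 fell from neurofibroma to paraspinal tumors by 0.54 (SE 0.13, adjusted p = 0.00166) and to GEM-PNST by 0.41 (SE 0.13, adjusted p = 0.0101). With library totals alone the first was -0.30 (adjusted p = 0.0764), and with the neurofibromas of run 2 alone the second was -0.33 (adjusted p = 0.14). GEM-PNST and paraspinal tumors differed by 0.06 (SE 0.19, adjusted p = 0.858).

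**Figure D4:**
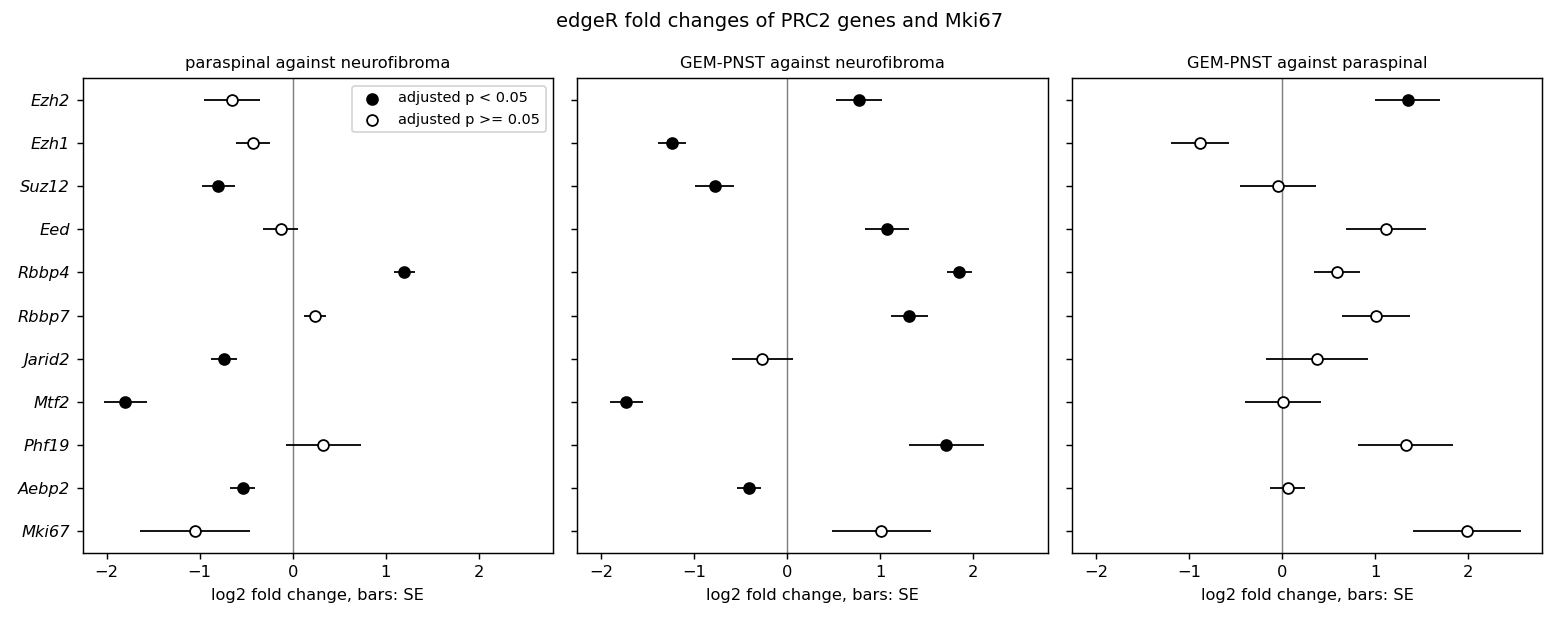
Log2 fold changes of the 10 PRC2 genes and Mki67 with their standard errors (bars) in 3 comparisons of tumor stages, from edgeR. Filled points have an adjusted p below 0.05: 5 genes for paraspinal tumors against neurofibroma, 9 for GEM-PNST against neurofibroma, and Ezh2 for GEM-PNST against paraspinal tumors.

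Counted over the family, 1 of the 10 genes rose and 4 fell in paraspinal tumors against neurofibroma, and 5 rose and 4 fell in GEM-PNST against neurofibroma. These shares, 5 and 9 of 10, stand beside 59.6% and 73.2% of all genes, so neither count is particular to the family. Median log2 fold changes of the 10 genes were -0.48, 0.25 and 0.49 for paraspinal tumors against neurofibroma, GEM-PNST against neurofibroma and GEM-PNST against paraspinal tumors, beside -0.02, -0.14 and 0 over all genes. The first and the second comparison share their neurofibroma libraries. With the neurofibromas of run 1 or of run 2 alone, 6 and 5 genes were called in the first and 8 and 8 in the second, where Ezh2 was lost with run 1 and Aebp2 with run 2. Without overlap were 1 gene higher (18.4% of all genes) and 2 lower (18.1%) in the first, 3 higher (21.3%) and 2 lower (25.2%) in the second, and 2 higher (11.2%) in the third, or 36.5%, 46.5% and 27.6% of all genes in either direction.

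The paraspinal subgroups differed in no PRC2 gene by the test, which called 0 of 16589 genes (2132 at an unadjusted p below 0.05). DESeq2 called 469 genes higher and 677 lower, Mtf2 among them at an adjusted p of 0.0223. Ezh2 (log2 0.95, SE 0.36, adjusted p = 0.351), Eed, Rbbp4 and Rbbp7 were higher in both libraries of subgroup 2 than in both of subgroup 1, and Ezh1 (-0.86, SE 0.31, adjusted p = 0.325), Suz12, Jarid2 and Mtf2 (-1.12, SE 0.42, adjusted p = 0.34) lower. That makes 8 of 10 genes without overlap, beside 69.6% of all genes.

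Other Polycomb genes were read in GEM-PNST against paraspinal tumors beside the 2.77% of all genes called higher and 8.13% called lower. Of 5 further PRC2 genes 4 were tested and Epop, an accessory subunit listed as E130012A19Rik, rose by 2.83 (SE 0.51, adjusted p = 0.014). It measured 21.6, 22.8, 11.99 and 6.56 CPM in GEM-PNST and 1.24 to 2.63 CPM in paraspinal tumors, without overlap, and averaged 0.177 CPM in neurofibroma. Of 22 genes of PRC1, the partner complex that ubiquitinates histone H2A, Pcgf5 rose by 1.47 (SE 0.34, adjusted p = 0.0342) and none fell. Pcgf5 measured 9.36, 12.8, 10.95 and 12.6 CPM in GEM-PNST and 3.28 to 4.42 CPM in paraspinal tumors. Of 6 genes that remove Polycomb marks none passed, Asxl3 at -1.55 (SE 1.14, adjusted p = 0.367) and Kdm6b, an H3K27 demethylase, at 0.32 (SE 0.34, adjusted p = 0.536) being those with the lowest p-values. The 14 genes of H3K36 and trithorax methylation, marks that oppose PRC2, had none either, with Wdr5 at 0.59 (SE 0.22, adjusted p = 0.102) and Dpy30 at 1.06 (SE 0.39, adjusted p = 0.107). Of 25 proliferation genes 9 rose and none fell, with a median of 2.23. Among them were the mitotic kinase Plk1 (2.92, SE 0.74, adjusted p = 0.0423), the cell cycle factor Mybl2 (2.43, SE 0.62, adjusted p = 0.0424) and the replication factors Cdt1 (2.62, SE 0.50, adjusted p = 0.0176) and Mcm5 (2.27, SE 0.54, adjusted p = 0.0365).

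Against neurofibroma the chromatin families had genes called in both directions, though not all as evenly as the whole table. Over all genes 30.3% were called higher and 29.3% lower in paraspinal tumors, and 35% and 38.2% in GEM-PNST. The 25 proliferation genes had 11 higher and 0 lower in paraspinal tumors and 24 higher and 0 lower in GEM-PNST. Of the 4 further PRC2 genes tested, 2 rose and 2 fell in each comparison. The third Polycomb-like gene, Phf1, rose by 2.30 in paraspinal tumors (SE 0.19, adjusted p = 3.27e-08) and by 2.13 in GEM-PNST (SE 0.21, adjusted p = 1.16e-07). Epop rose by 3.43 and 6.33 in paraspinal tumors and GEM-PNST. Lcor, at -4.15 and -5.13, and Lcorl, at -2.50 and -3.07, fell. PRC1 genes numbered 9 higher and 6 lower of 22 in paraspinal tumors and 9 higher and 5 lower in GEM-PNST. For Phc2 the log2 fold changes were 1.97 (SE 0.17, adjusted p = 3.6e-08) and 2.83 (SE 0.24, adjusted p = 2.7e-08) in paraspinal tumors and GEM-PNST, and for Phc3 -2.24 (SE 0.21, adjusted p = 9.97e-08) and -2.87 (SE 0.16, adjusted p = 3.17e-10). Both encode Polyhomeotic subunits of PRC1. The H3K27 demethylase genes parted likewise, Kdm6a at -2.12 (SE 0.29, adjusted p = 6.87e-06) and -2.17 (SE 0.27, adjusted p = 1.95e-06) and Kdm6b at 0.92 (SE 0.18, adjusted p = 0.000366) and 1.32 (SE 0.23, adjusted p = 6.59e-05). Of the 14 H3K36 and trithorax genes 4 rose and 10 fell in paraspinal tumors, and 4 rose and 9 fell in GEM-PNST. Their median log2 fold changes were -0.96 and -1.33, beside -0.02 and -0.14 over all genes. Of the 6 genes that remove Polycomb marks 2 rose and 4 fell in paraspinal tumors, with a median of -1.04. In GEM-PNST 2 of the 6 rose and 3 fell, with a median of -1.12. Phf1, Phc2, Phc3 and Kdm6a, named here, were chosen after their values were seen.

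Beside the PRC2 changes in GEM-PNST, other cell types moved too. From paraspinal tumors to GEM-PNST 13 of 15 sensory neuron markers, 8 of 10 myelinating Schwann cell markers and 1 of 8 Schwann lineage markers fell. The summed myelinating markers were 76.5 to 458 CPM in GEM-PNST and 7464 to 18030 CPM in paraspinal tumors. Of 10 macrophage markers none passed, with a median of 1.27, and their sum was 1894 to 5327 CPM in GEM-PNST and 323 to 1849 CPM in paraspinal tumors. Of 10 T and NK cell markers 2 rose, Cd4 by 4.52 (SE 0.93, adjusted p = 0.0229) and Cd8a by 4.67 (SE 1.21, adjusted p = 0.0451), with a median of 4.10 over the list and a sum of 4.92 to 310 CPM in GEM-PNST and 2.35 to 9.44 CPM in paraspinal tumors. Of 6 B and plasma cell markers 1 rose, Mzb1 by 5.50 (SE 1.20, adjusted p = 0.0278), with a median of 4.81 and a sum of 1.79 to 198 CPM against 2.08 to 9.79 CPM. The part of these cells in the levels of Ezh2, Ezh1 and the other subunits was not tested.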

How the data were processed

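The 10 members and the gene lists were chosen with earlier results of these data known. The deposited table holds raw counts per gene for the 20 libraries, which the authors made with TopHat, HISAT2 and featureCounts on mm10, per the submitters' processing notes. Versions, annotation and strand setting are not given in the sources used here. All values were tested to be whole numbers, and none of 190 library pairs agreed within sampling noise (a chi-square of 22.6 or more per degree of freedom).

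Counts were tested with edgeR 4.0.16 (R 4.3.3), by quasi-likelihood F tests with TMM factors on the 16589 genes that passed its expression filter over all libraries (95.78% to 99.97% of each library's counts). Comparisons of stages used their own libraries, and that of the subgroups also the GEM-PNST, for a shared estimate of spread. Benjamini-Hochberg adjustment ran over all 16589 genes with a threshold of 0.05. Ratios were tested by two-sided exact permutation and correlations with 100000 resamples (SciPy 1.17.1). The tests were tried on simulated data. Named were the 10 members and Mki67, up to 4 members of each other list among those past the threshold in GEM-PNST against paraspinal tumors (2 where none passed), and the 5 genes most like Ezh2 and Ezh1. Alternatives were RLE factors, library totals alone, no filter, a filter within each comparison, DESeq2 1.42.0, 1 fit of all libraries, each subgroup or run alone, a replicate block, and libraries left out in turn. The filter within the comparison and the fit without neurofibroma 4 were chosen after seeing the data.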

Additional observations from a re-analysis of the deposited data

Results flagged for a closer look

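Of 26 sets of 4 libraries in which the levels of the PRC2 genes and Mki67 and the 2 ratios were screened for a library far from the others, 1 stood out: Phf19 in paraspinal subgroup 2 library 1, at 4.58 CPM against 2.39 to 2.57 CPM in the other 3 paraspinal libraries. The gap was 0.921 of the group's range, above the limit of 0.829 for 4 values. Chance marks about 1 in 20 such sets. The same library had the highest Ezh2 (23.5 CPM) and Mki67 (57.5 CPM) of the paraspinal tumors.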

How the results depend on the processing

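No PRC2 gene or ratio with a called difference changed direction under any alternative run. In GEM-PNST against paraspinal tumors the count of 1 member was 0 with library totals alone, without a filter, with subgroup 2 alone and with the replicate block. It was 3 with DESeq2 (Ezh2 and Phf19 higher, Ezh1 lower), 6 with all 20 libraries in 1 fit (5 higher, 1 lower) and 2 with subgroup 1 alone, and it ranged from 0 to 1 when each library was left out. Over all genes the main run called 459 higher and 1349 lower of 16589. DESeq2 called 1953 and 2799 of 16927 and the 1 fit 3858 and 3249, so more of all genes were called there too. With subgroup 1 alone the calls were 505 and 951, and with subgroup 2 alone 0 and 91. Ezh2 passed in 7 of 17 alternatives, with a log2 fold change of 0.93 to 1.96 and adjusted p of 0.00123 to 0.336. Against neurofibroma, each library of the other stage and neurofibromas 4, 8 and 9 were left out in turn, and the remaining neurofibromas were not. The count of 5 in paraspinal tumors then ranged from 5 to 7. That of 9 in GEM-PNST was 9 each time, though not of the same genes: without GEM-PNST library 1 Ezh2 lost its call and Jarid2 gained one. The subgroup count of 0 was 1 with DESeq2.

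Replicate numbers did not pair the samples (correlations of same-numbered libraries from -0.307 to 0.267), and with the number as a block the counts were 0, 1 and 4 in the 3 stage comparisons. Over all genes the block left 105 higher and 843 lower in GEM-PNST against paraspinal tumors. Against neurofibroma it left 1387 and 1581 in paraspinal tumors and 3407 and 3992 in GEM-PNST. The paraspinal against neurofibroma split of all genes was 5021 higher and 4867 lower, and 5983 and 3903 with library totals alone. That scaling gave a median of all genes of 0.22 there (main -0.0153), -0.363 in GEM-PNST against neurofibroma (main -0.138, RLE factors -0.276) and -0.391 in GEM-PNST against paraspinal tumors (main 0).

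The Ezh2 to Ezh1 difference between GEM-PNST and paraspinal tumors, 2.19, was 1.85 to 2.65 without each library (adjusted p = 0.0857 in each by exact permutation, where 3 against 4 cannot go below 0.0571), 3.08 with subgroup 1 alone (0.133) and 1.30 with subgroup 2 alone (0.2). Against neurofibroma the paraspinal difference of -0.16 was -1.04 with subgroup 1 alone (adjusted exact permutation p = 0.033) and 0.73 with subgroup 2 alone (0.242). Values for a subgroup alone are descriptions, since the subgroups may have been defined on these expression values. The correlation of Ezh2 with Mki67 had adjusted permutation p-values of 0.208 in run 1 (r = 0.90), 0.306 in run 2 (r = 0.73) and 0.736 without the 2 farthest libraries (r = 0.53). The cause of these changes was not tested, beyond the fewer libraries in some. Of the single-gene values under alternatives 656 kept their call, 33 gained and 26 lost it. Phf19, with 8 to 152 counts a library, is the member whose depth limits it most.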

Other observations

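Transcription factor genes that PRC2 silences in embryonic stem cells, 46 in the list, were mostly near 0. Only 18 passed the filter on low counts, so counts over these 18 do not describe the list. From paraspinal tumors to GEM-PNST 1 of the 18 fell and none rose. Isl1, a sensory neuron factor, fell by 6.86 in log2 units (SE 1.43, edgeR adjusted p = 0.0242). It measured 35.6 and 31.9 CPM in paraspinal subgroup 1, 12.1 and 13.6 CPM in subgroup 2, and 0 in 3 GEM-PNST with 0.746 CPM in library 3, beside the low neuron markers of these tumors. The summed level of the 46 genes was 56.2 to 336.5 CPM in GEM-PNST, 93.1 to 286 CPM in paraspinal tumors and 106 to 215 CPM in neurofibroma, and the groups overlapped. At 0 counts in every library of a stage were 15 of the genes in GEM-PNST, 7 in paraspinal tumors and 5 in neurofibroma. With 12 libraries against 4 in each other stage, neurofibroma had more chances of a stray count, so its number is not directly comparable. Some of these genes differed between stages by very few counts. Foxa1 had 1 count in all neurofibromas, 2 in paraspinal tumors and 0 in GEM-PNST.

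From neurofibroma to GEM-PNST 5 of the 18 rose and 6 fell. The genes that follow were chosen after their values were seen. Twist2, a mesenchymal factor, rose by 5.48 (SE 0.86, adjusted p = 2.54e-05), with a mean of 63.6 CPM and a highest library of 157 CPM in GEM-PNST, beside means of 7.25 CPM in paraspinal tumors and 1.40 CPM in neurofibroma. Msx1 rose by 7.71 (SE 0.73, adjusted p = 8.7e-08), with a mean of 14.8 CPM and a highest library of 34.9 CPM in GEM-PNST, beside means of 2.63 and 0.062 CPM. Isl1 fell by 6.86 (SE 1.37, adjusted p = 0.000274) and Pax3, a neural crest factor, fell by 4.30 (SE 0.71, adjusted p = 4.33e-05), from means of 24.8 and 1.59 CPM in neurofibroma. Their means in paraspinal tumors were 23.3 and 0.429 CPM. Nkx2-1 and Wt1, also among the 6 that fell, were at 0 counts in GEM-PNST, with means of 1.72 and 2.09 CPM in neurofibroma.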
